A study of Mus musculus with 52 samples.

Results

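A set of 10 genes carries the assembly line by which a cell shows peptides on major histocompatibility complex (MHC) class I, and their mRNA was followed through 4 treatment groups of mouse KPC tumors. They were chosen by symbol in a table of 27525 genes, and all 10 were found and passed the filter on low values. H2-K1 and H2-D1 encode the classical heavy chains, B2m the light chain, Tap1 and Tap2 the peptide transporter, and Tapbp tapasin. Psmb8, Psmb9 and Psmb10 encode the catalytic subunits of the immunoproteasome, and Nlrc5 the transactivator of class I genes.

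KPC tumors grow from pancreatic tumor cells (KxPxCx) that came from genetically engineered mice in which Pdx1-Cre switches on mutant alleles, among them Trp53 LSL.R172H/+, so the tumor cells of every group carry the same mutant alleles and Cre recombinase. The cells were placed under the skin of syngeneic male C57BL/6 mice aged 8 to 10 weeks, outside the pancreas, and all groups share this host and this cell line. Tumors were left untreated, were injected once with 2 µg of ADU-S100, which is an analog of cGAMP and an agonist of STING, were from mice given 100 µg of the LTβR agonist antibody 4H8 (anti-LTβR) intraperitoneally 4 times, or had both agents (combination). Each group held 8 tumors, each sequenced alone as poly(A) RNA at day 14, and the comparisons ask what each agent and their combination did to the tumor transcriptome.

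Class I molecules display fragments of proteins made inside the cell. Proteasomes cut the proteins, the TAP transporter moves the peptides into the endoplasmic reticulum, tapasin helps load them, and the complex of heavy chain, light chain and peptide travels to the surface, where CD8 T cells read it. Interferon-γ raises most genes of this pathway through factors such as IRF1 and NLRC5, among them the immunoproteasome subunits, which take the place of constitutive catalytic subunits, and loss of the pathway is a known way for tumors to escape CD8 T cells.

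Values are normalized counts, that is, the reads of a gene scaled by a size factor of its library, as the authors deposited them. Depth was even, with 12762453 to 15591986 reads per library recovered from a larger deposited table. Tumor epithelium markers (Krt8, Krt18, Krt19, Epcam and Krt7) were present in every tumor and summed to 6756 to 28845 normalized counts. Skin keratinocyte markers summed to 1031 to 41241. Their medians were 10331 in untreated tumors, 4313 with ADU-S100, 3770 after anti-LTβR and 14556 in the combination. In limma 0 of 3 passed against untreated tumors in each treated group, and 1 of 3 was higher in the test of the interaction of the agents. The part of skin in the results was not tested. Skeletal muscle markers summed to 4211 to 264834 and differed both within and between groups, with medians of 6553 in untreated tumors, 62811 with ADU-S100, 81425 after anti-LTβR and 75014 in the combination. Their list medians against untreated tumors were log2 1.59, 1.68 and 1.47 in that order, with 0 of 3 markers passing in limma in each (0 of 3 at an unadjusted p under 0.05), and the part of this tissue in the results was not tested. Replicates are different tumors, so p-values measure the spread between tumors. Whether tumors of a group shared a mouse is not given in the sources used here, and the tests treat them as independent. In bulk tissue fewer cells of a type and less RNA per cell cannot be told apart.

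Promoters are shown for Tap1 and Psmb9, which share one, for the closely related H2-K1 and H2-D1, and for B2m, to show where inducible motifs lie. RefSeq windows of 300 bases (250 before to 50 after a start, GRCm38.p6) existed for 8 of the 10 genes, and none was found for Tap2 and Nlrc5. Both strands were searched for pairs of GAAA spaced by NN (an interferon-stimulated response element, ISRE), TTCNNNGAA (a gamma-activated site, GAS), GGGNNTTCC (a κB site) and CCAAT, and capitals mark the ISRE, κB and CCAAT matches. Tap1 and Psmb9 start on opposite strands, and the stretch between both starts (chr17:34187331-34187555, plus strand, 225 bases) lies upstream of each. The other sequences are the 250 bases before the start of H2-K1 (chr17:34000348-34000597, minus strand), H2-D1 (chr17:35262844-35263093, plus strand) and B2m (chr2:122147437-122147686, plus strand).
Tap1 and Psmb9: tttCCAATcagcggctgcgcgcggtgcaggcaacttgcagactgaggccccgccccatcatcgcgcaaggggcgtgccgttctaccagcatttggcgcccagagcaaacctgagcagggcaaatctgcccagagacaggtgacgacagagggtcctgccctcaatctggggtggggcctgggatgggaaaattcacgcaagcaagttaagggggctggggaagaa
H2-K1: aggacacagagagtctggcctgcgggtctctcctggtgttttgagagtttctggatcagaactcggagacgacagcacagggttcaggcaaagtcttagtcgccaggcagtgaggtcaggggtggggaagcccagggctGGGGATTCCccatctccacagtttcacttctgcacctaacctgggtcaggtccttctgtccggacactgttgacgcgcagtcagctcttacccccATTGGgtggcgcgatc
H2-D1: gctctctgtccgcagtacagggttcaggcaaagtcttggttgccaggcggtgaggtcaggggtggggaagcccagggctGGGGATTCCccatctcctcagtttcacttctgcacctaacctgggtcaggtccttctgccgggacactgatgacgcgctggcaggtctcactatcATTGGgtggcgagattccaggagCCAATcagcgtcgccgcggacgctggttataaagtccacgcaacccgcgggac
B2m: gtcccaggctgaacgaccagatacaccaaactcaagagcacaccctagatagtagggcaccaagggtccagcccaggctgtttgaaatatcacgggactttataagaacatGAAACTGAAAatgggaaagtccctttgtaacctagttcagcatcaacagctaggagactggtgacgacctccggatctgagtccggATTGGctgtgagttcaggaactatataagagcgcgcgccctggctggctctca

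The κB letters GGGGATTCC stood in H2-K1, 111 bases before its upstream start, and in H2-D1, 171 bases before its start, and 5.82% of all 32851 windows held the κB motif. The ISRE letters stood in B2m alone of the 8 genes, 139 bases before the start (GAAACTGAAA), against 3.44% of all windows. Psmb8, whose window is not printed, held the one GAS match, 97 bases before its start (TTCCCAGAA), against 8.3% of windows. CCAAT was found in 6 of 8 genes and in 37.4% of windows, and the copy between Tap1 and Psmb9 lay in the windows of both. A match describes the letters and is no evidence of a bound factor. The search took only exact letters, so a window without a match can still hold a variant of a motif.

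The level of the 10 genes spanned a wide range when set per kb of exon. In untreated tumors B2m led with 50161 ± 7656 normalized counts per kb (mean ± SD, n = 8), followed by H2-D1 with 17852 ± 2639 and H2-K1 with 12360.0 ± 1835. Tapbp stood at 1776 ± 276 per kb, Psmb8 at 1017 ± 173, Tap1 at 888 ± 102 and Psmb10 at 842 ± 169. The lowest levels were those of Tap2 with 544 ± 66.4, Psmb9 with 468 ± 78.7 and Nlrc5 with 289.6 ± 36.3 per kb. The ranges over untreated tumors did not overlap between B2m and H2-D1, between H2-K1 and Tapbp, or between Tapbp and Psmb8. All other neighbours in this order had overlapping ranges, and the means of the 10 genes stood in the same order in all 4 groups.

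**Figure D1:**
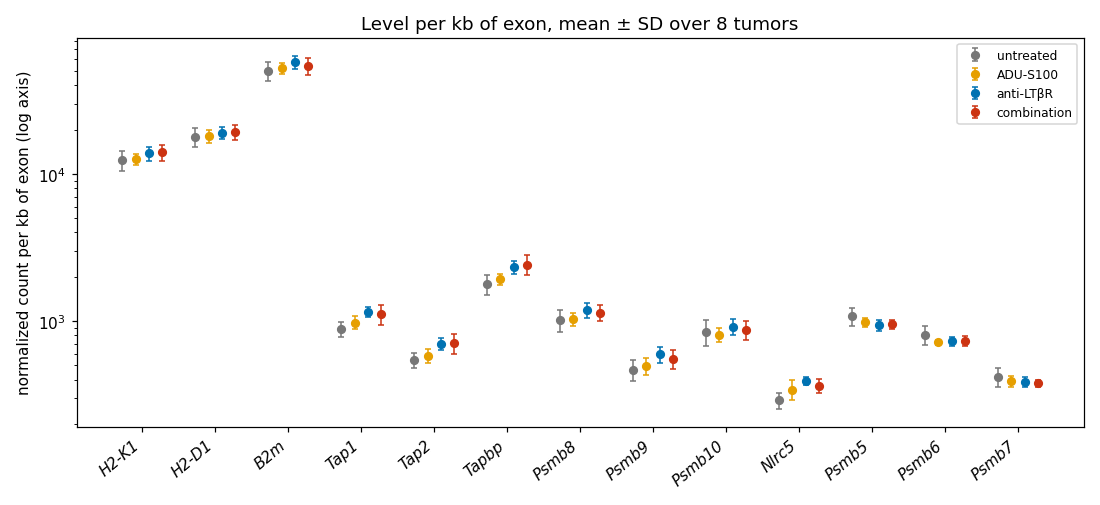
Normalized counts per kb of exon on a log axis for the 10 genes and the constitutive subunits Psmb5, Psmb6 and Psmb7, with the mean ± SD over 8 tumors for each of the 4 groups. B2m stands highest (50161 ± 7656 in untreated tumors, mean ± SD) and Nlrc5 lowest (289.6 ± 36.3).

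Combination tumors and anti-LTβR tumors both held more mRNA for the transporter (Tap1, Tap2), tapasin (Tapbp) and the transactivator Nlrc5 than untreated tumors, by 1.25 to 1.36 fold in the combination and by 1.30 to 1.36 fold after anti-LTβR. The immunoproteasome subunit Psmb9 also rose after anti-LTβR. The heavy chains H2-K1 and H2-D1, the light chain B2m, and Psmb8 and Psmb10 did not pass the test in either comparison. ADU-S100 alone changed none of the 10 past the threshold. By limma with Benjamini-Hochberg adjustment over all genes, 4 of 10 members were higher in the combination, where 19.6% of 16909 genes tested were higher. For anti-LTβR it was 5 of 10, where 7.21% of 16691 genes were higher, and no member was lower in either comparison, where 23.6% and 8.1% of genes were lower. For ADU-S100 it was 0 of 10 members and 0.0% of 16613 genes, with 1 member and 2408 genes at an unadjusted p under 0.05, and edgeR and DESeq2 each called 0 of the 9 members in the larger table. Over all genes edgeR called 1 and DESeq2 28 higher and 11 lower. The median log2 change of the members was 0.22 in the combination, 0.30 after anti-LTβR and 0.08 after ADU-S100, beside -0.02, 0.00 and -0.00 over all genes tested. All 3 comparisons share the untreated tumors. No member changed by 2-fold, which 6.12% of genes did past the threshold in the combination, 1.04% after anti-LTβR and 0.0% after ADU-S100.

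**Figure D2:**
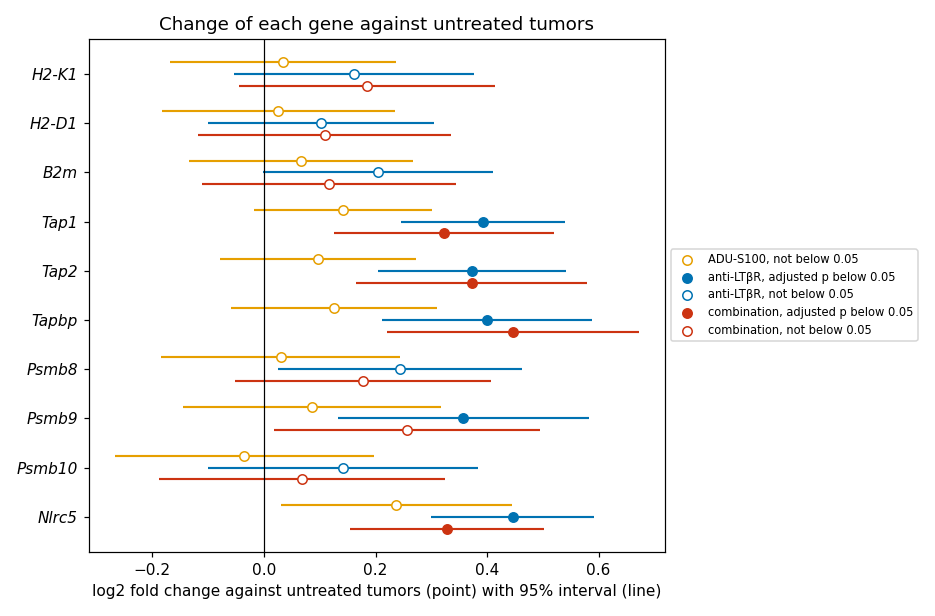
Log2 fold change of each of the 10 genes against untreated tumors for the combination, anti-LTβR and ADU-S100, with 95% intervals from limma, and filled points mark an adjusted p below 0.05. Tapbp (0.45) led in the combination and Nlrc5 (0.45) after anti-LTβR, and H2-D1 lay near 0.10 in both.

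The heavy chains were abundant in all groups. H2-K1 (ENSMUSG00000061232, chr17:34214991-34219321, minus strand, GRCm39) spanned 25497 to 42874 (median 36921) normalized counts in untreated tumors and 32248 to 41739.7 (median 37460.1) in ADU-S100 tumors. H2-K1 spanned 32458 to 45497 (median 41163) after anti-LTβR and 34471 to 48557 (median 40299) in the combination. The 4 groups overlapped widely, and 3 of 8 tumors lay above all untreated tumors both after anti-LTβR and in the combination. The log2 difference from untreated tumors was 0.18 (95% interval -0.04 to 0.41, adjusted p = 0.180) in the combination and 0.16 (95% interval -0.05 to 0.38, adjusted p = 0.275) after anti-LTβR. H2-D1 (ENSMUSG00000073411, chr17:35481706-35486475, plus strand) spanned 32520.2 to 56061 (median 46271) in untreated tumors and 39666 to 52568 (median 47801) in ADU-S100 tumors. H2-D1 spanned 41591 to 54136 (median 50510.2) after anti-LTβR and 42263 to 57347 (median 48260.1) in the combination. No anti-LTβR tumor and 2 combination tumors exceeded the highest untreated tumor. Its log2 difference was 0.11 (95% interval -0.12 to 0.33, adjusted p = 0.430) in the combination and 0.10 (95% interval -0.10 to 0.31, adjusted p = 0.472) after anti-LTβR. Of the 50-base windows in their transcripts, 9.63% of H2-K1 and 12.8% of H2-D1 also occur in other genes, mostly class I genes, so part of their reads could be counted for a relative.

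The light chain overlapped between groups as well. B2m (ENSMUSG00000060802, chr2:121978167-121983564, plus strand) lies within the span of Patl2 and associates with every class I heavy chain at the surface. B2m spanned 33397 to 52975 (median 42168) in untreated tumors and 40324 to 52304 (median 44548) in ADU-S100 tumors. B2m spanned 42568 to 57066 (median 49531) after anti-LTβR and 38706 to 54682 (median 44801) in the combination. All 8 anti-LTβR tumors lay above the untreated median, but only 2 above every untreated tumor. The log2 difference was 0.20 (95% interval -0.00 to 0.41, adjusted p = 0.153) after anti-LTβR and 0.12 (95% interval -0.11 to 0.34, adjusted p = 0.399) in the combination. These intervals leave room for a rise of up to 1.33 fold after anti-LTβR.

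Both subunits of the transporter rose with anti-LTβR and with the combination. Tap1 (ENSMUSG00000037321, chr17:34406527-34416199, plus strand) spanned 3965 to 5799.8 (median 4839) in untreated tumors and 4532 to 6185 (median 5409) in ADU-S100 tumors. Tap1 spanned 5755 to 7092 (median 6205) after anti-LTβR and 4974 to 7958 (median 6011) in the combination. Every untreated tumor was exceeded by 7 of 8 anti-LTβR tumors and 5 of 8 combination tumors. Tap1 was higher by log2 0.39 (SE 0.0697, 95% interval 0.25 to 0.54, adjusted p = 0.00299) after anti-LTβR and by 0.32 (SE 0.0934, 95% interval 0.13 to 0.52, adjusted p = 0.0104) in the combination. Tap2 (ENSMUSG00000024339, chr17:34422501-34435295, plus strand) spanned 1529.8 to 2295 (median 2091) in untreated tumors and 1752 to 2477 (median 2233) in ADU-S100 tumors. Tap2 spanned 2211 to 2989.7 (median 2729) after anti-LTβR and 2031 to 3211 (median 2665) in the combination. Here 7 of 8 anti-LTβR and 6 of 8 combination tumors stood above all untreated tumors. Tap2 was higher by log2 0.37 (SE 0.0798, 95% interval 0.20 to 0.54, adjusted p = 0.00837) after anti-LTβR and by 0.37 (SE 0.0983, 95% interval 0.16 to 0.58, adjusted p = 0.00597) in the combination. Tap1 and Psmb9 overlap by 212 bases on opposite strands. Other gene models also overlap Tap2, Tapbp, Psmb8, Psmb10 and Nlrc5, and whether counting used the strand that the kit kept is not given in the sources used here.

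Tapasin, which bridges the transporter and the empty heavy chain, had the largest change of the 10 in the combination. Tapbp (ENSMUSG00000024308, chr17:34134873-34148266, plus strand) spanned 5119 to 8197 (median 6238) in untreated tumors and 5822 to 7802 (median 6918) in ADU-S100 tumors. Tapbp spanned 7241 to 9951 (median 8417) after anti-LTβR and 6623 to 10479.5 (median 8524) in the combination. In both treated groups 5 of 8 tumors exceeded every untreated tumor and all 8 exceeded the untreated median. Tapbp was higher by log2 0.45 (SE 0.107, 95% interval 0.22 to 0.67, adjusted p = 0.00316) in the combination and by 0.40 (SE 0.0893, 95% interval 0.21 to 0.59, adjusted p = 0.00999) after anti-LTβR. It is absent from the larger table, so no count test was run on it.

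**Figure D3:**
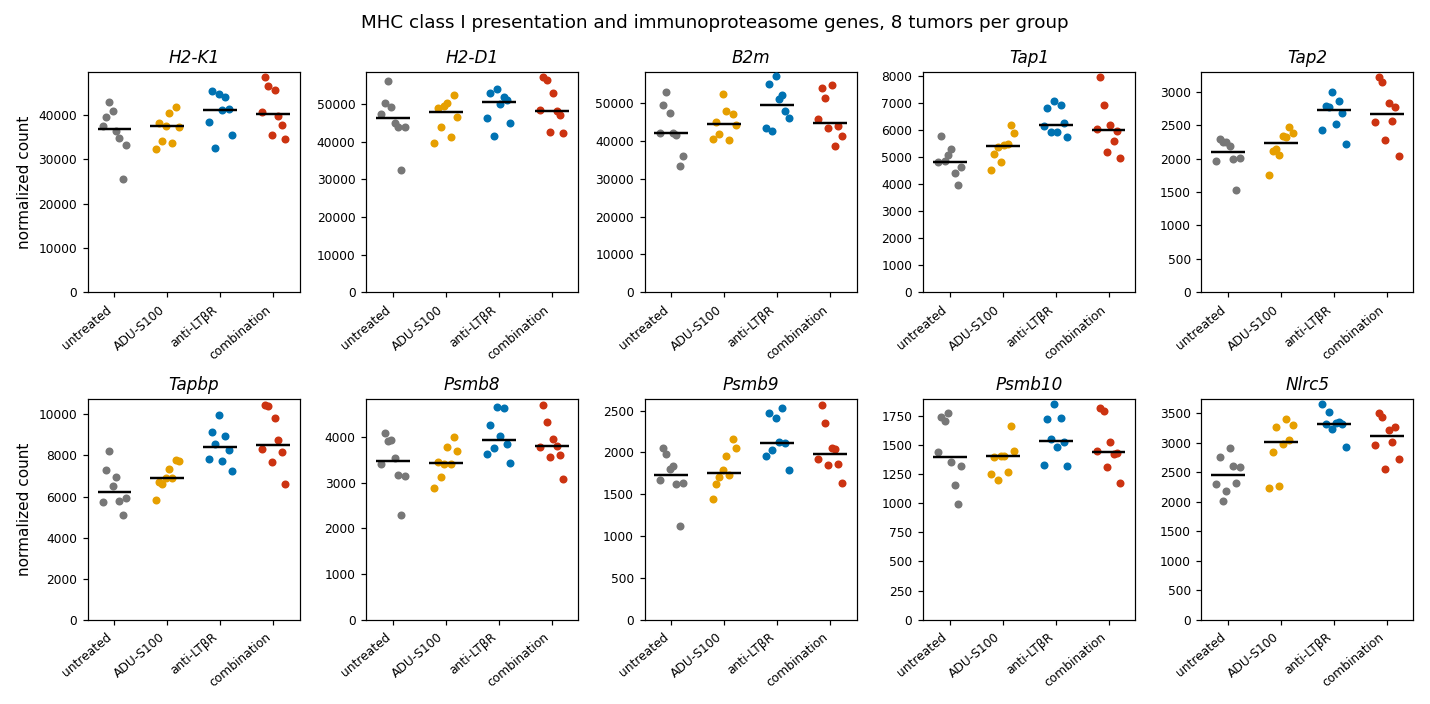
Normalized counts of the 10 genes by tumor, 1 panel per gene with its own axis, 8 tumors per group and a line at the group median. For Nlrc5 the 8 anti-LTβR tumors (2935 to 3658) lie above all 8 untreated tumors, whereas the groups overlap for H2-K1, H2-D1 and B2m.

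Of the immunoproteasome subunits, Psmb9 passed the test after anti-LTβR, and Psmb8 and Psmb10 passed in no comparison. Psmb8 (β5i, ENSMUSG00000024338, chr17:34416695-34420428, plus strand) spanned 2296 to 4089.8 (median 3474) in untreated tumors and 2895 to 4012 (median 3437) in ADU-S100 tumors. Psmb8 spanned 3425 to 4663 (median 3948) after anti-LTβR and 3085 to 4715 (median 3803) in the combination. The groups overlapped, with 3 of 8 anti-LTβR and 2 of 8 combination tumors above all untreated tumors. The log2 difference was 0.24 (95% interval 0.03 to 0.46, adjusted p = 0.111) after anti-LTβR and 0.18 (95% interval -0.05 to 0.41, adjusted p = 0.196) in the combination.

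Psmb9 (β1i, ENSMUSG00000096727, chr17:34400961-34406738, minus strand) spanned 1114 to 2049 (median 1736) in untreated tumors and 1439 to 2165 (median 1758) in ADU-S100 tumors. Psmb9 spanned 1789 to 2527 (median 2118) after anti-LTβR and 1636 to 2566 (median 1982) in the combination. Above every untreated tumor stood 5 of 8 anti-LTβR and 3 of 8 combination tumors. Psmb9 was higher by log2 0.36 (SE 0.107, 95% interval 0.13 to 0.58, adjusted p = 0.0339) after anti-LTβR, and its difference in the combination was 0.26 (95% interval 0.02 to 0.49, adjusted p = 0.0763). The call after anti-LTβR was lost without any 1 of untreated tumors 1 and 6 and anti-LTβR tumors 2, 4, 5, 6 and 7 (limma adjusted p 0.0510 to 0.0658). The combination passed without untreated tumor 2 or combination tumor 8 (lowest limma adjusted p 0.0425), and without untreated tumor 7 its difference was 0.17 (limma adjusted p = 0.125).

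Psmb10 (β2i, ENSMUSG00000031897, chr8:106662367-106665076, minus strand) lies on chromosome 8 like Nlrc5, away from the MHC on chromosome 17. Psmb10 spanned 992 to 1776 (median 1398) in untreated tumors and 1200.0 to 1662 (median 1404) in ADU-S100 tumors. Psmb10 spanned 1324 to 1854 (median 1538) after anti-LTβR and 1173 to 1818 (median 1443) in the combination. All groups overlapped, and the untreated tumors were the most spread, with a coefficient of variation of 20.0%. The log2 difference was 0.14 (95% interval -0.10 to 0.38, adjusted p = 0.398) after anti-LTβR and 0.07 (95% interval -0.19 to 0.33, adjusted p = 0.676) in the combination. Without untreated tumor 7 the difference in the combination was -0.0039.

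Nlrc5, which drives transcription from class I promoters, was the member whose anti-LTβR and untreated tumors did not overlap. Nlrc5 (ENSMUSG00000074151, chr8:95160984-95253900, plus strand) spanned 2011 to 2919 (median 2453) in untreated tumors and 2237 to 3395 (median 3007) in ADU-S100 tumors. Nlrc5 spanned 2935 to 3658 (median 3324) after anti-LTβR and 2546 to 3499 (median 3118) in the combination. All 8 anti-LTβR tumors stood above all 8 untreated tumors, which held for 0.809% of the genes tested. In the combination 6 of 8, and after ADU-S100 5 of 8, exceeded every untreated tumor. Nlrc5 was higher by log2 0.45 (SE 0.0694, 95% interval 0.30 to 0.59, adjusted p = 0.00140) after anti-LTβR and by 0.33 (SE 0.0824, 95% interval 0.15 to 0.50, adjusted p = 0.00434) in the combination. After ADU-S100 the difference was 0.24 (95% interval 0.03 to 0.45, adjusted p = 0.313), the largest of the 10 for that agent.

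After ADU-S100 alone the other 9 members differed from untreated tumors by -0.03 (Psmb10) to 0.14 (Tap1) on the log2 scale. Tapbp was at 0.13 (95% interval -0.06 to 0.31, adjusted p = 0.477) and Tap1 at 0.14 (95% interval -0.02 to 0.30, adjusted p = 0.373). H2-K1 was at 0.03 (95% interval -0.17 to 0.24, adjusted p = 0.881), H2-D1 at 0.03 (95% interval -0.18 to 0.23, adjusted p = 0.911) and B2m at 0.07 (95% interval -0.13 to 0.27, adjusted p = 0.745). Across the 10 genes the 95% intervals ran from -0.27 to 0.45, so that a 2-fold change lies outside each of them. Untreated tumor 7 held the lowest value of 9 of the 10 genes, Nlrc5 excepted, and without it the members that passed still numbered 4 in the combination, 5 after anti-LTβR and 0 after ADU-S100. Without this tumor the median log2 change of the members was 0.14 in the combination, 0.22 after anti-LTβR and 0.01 after ADU-S100. The uncalled difference of H2-D1 was then 0.04 in the combination and 0.03 after anti-LTβR, and that of H2-K1 0.11 and 0.09. B2m in the combination was at 0.07 and Psmb8 at 0.10 without it, and Psmb10 after anti-LTβR at 0.07. After ADU-S100 it left B2m at 0.02, Tapbp at 0.08, Tap2 at 0.04 and Psmb9 at 0.00.

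No member was called different when ADU-S100 was added to anti-LTβR. Between combination and anti-LTβR tumors 0 of 10 members passed in limma, with 0 at an unadjusted p under 0.05, and edgeR and DESeq2 each called 0 of 9, where 26.6% of 16932 genes passed in either direction. The differences ran from -0.12 (95% interval -0.25 to 0.02, adjusted p = 0.180) for Nlrc5 to 0.05 (95% interval -0.15 to 0.24, adjusted p = 0.750) for Tapbp. Against ADU-S100 alone the combination held more Tapbp, by 0.32 (SE 0.0902, 95% interval 0.13 to 0.51, adjusted p = 0.00790), and more Tap2, by 0.27 (SE 0.0916, 95% interval 0.08 to 0.47, adjusted p = 0.0211). These were 2 of 10 members where 20.2% of 16811 genes were higher, and in each case 6 of 8 combination tumors exceeded every ADU-S100 tumor. Without combination tumor 8, which held the lowest value of 8 of the 10 genes in its group, 4 members passed, and with only libraries above 14000000 reads 0 passed. Anti-LTβR tumors exceeded ADU-S100 tumors in Tapbp by log2 0.27 (adjusted p = 0.0280), in Tap2 by 0.28 (adjusted p = 0.0327) and in Tap1 by 0.25 (adjusted p = 0.0290), which were 3 of 10 members where 3.38% of 16649 genes (563) were higher. That count over all genes was 246 to 742 when 1 library was left out, and lowest (246 to 346) without any 1 of ADU-S100 tumors 2, 4 and 5 and anti-LTβR tumors 4, 6 and 7. No member passed there in a joint fit of all groups, and none by limma without ADU-S100 tumor 2 or 4 or without anti-LTβR tumor 4 or 6, 1 passed without anti-LTβR tumor 2, and 5 passed without ADU-S100 tumor 7 or anti-LTβR tumor 8.

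Nlrc5 was the one member for which limma called the effect of 1 agent different in the presence of the other. In the test of the interaction over all 32 tumors the combination held less Nlrc5 than the sum of the single effects on the log2 scale, by -0.36 (SE 0.120, 95% interval -0.60 to -0.11, adjusted p = 0.0376) in limma. It was 1 of 10 members, where 18.4% of 17649 genes passed in either direction. ADU-S100 raised the mean log2 level by 0.24 without the antibody, a difference that did not pass, and changed it by -0.12 with the antibody. The other 9 members had interaction estimates of -0.21 (Tap1) to -0.01 (H2-K1), none of which passed. On recovered reads edgeR gave Nlrc5 an adjusted p of 0.0511 to 0.0637 with 3 scalings, and DESeq2 called it (-0.32, adjusted p = 0.0427). The limma call was lost without any 1 of untreated tumors 1, 3 and 4, ADU-S100 tumors 3, 5, 6, 7 and 8, anti-LTβR tumors 1 and 2, and combination tumors 1, 4, 6 and 8 (estimates -0.36 to -0.32, limma adjusted p 0.0504 to 0.0650).

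Immunoproteasome subunits replace constitutive partners in the same position, and the ratio of their mRNAs within a tumor does not depend on the size factor. The constitutive subunits Psmb5 (β5), Psmb6 (β1) and Psmb7 (β2) stood slightly below the untreated level in combination tumors, by log2 -0.18, -0.13 and -0.14, and none passed (limma adjusted p 0.0787, 0.206 and 0.145). Their list median was -0.13 both after anti-LTβR and after ADU-S100, and none passed there either. Psmb5 averaged 973 normalized counts in untreated tumors, 844 after anti-LTβR and 854 in the combination. The log2 ratio of Psmb8 to Psmb5 spanned 1.58 to 1.99 (median 1.83) in untreated tumors and 1.74 to 2.22 (median 1.96) in ADU-S100 tumors. That ratio spanned 2.07 to 2.40 (median 2.27) after anti-LTβR and 2.08 to 2.46 (median 2.14) in the combination. All 8 anti-LTβR and all 8 combination tumors lay above all 8 untreated tumors, and the ADU-S100 tumors overlapped with both sides. How many ratios of other gene pairs part the groups like this was not computed. Psmb8 itself differed by log2 0.24 after anti-LTβR and 0.18 in the combination and passed in neither, so the ratio also took in the lower Psmb5. The ratio was 1.36 fold higher after anti-LTβR (difference of log2 means 0.44) and 1.28 fold higher in the combination (0.36). Each had an adjusted p of 0.00186 by two-sided exact permutation over 12870 splits, adjusted over 36 tests (6 ratios in 6 pairs of groups), and the smallest unadjusted p these can give is 0.000155. For ADU-S100 the difference was 0.16 with an exact adjusted p of 0.136.

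The Psmb9 to Psmb6 ratio also rose in both treatments that held anti-LTβR. Its log2 value spanned -0.23 to 0.41 (median 0.27) in untreated tumors and 0.16 to 0.66 (median 0.40) in ADU-S100 tumors. After anti-LTβR it spanned 0.43 to 0.92 (median 0.63) and in the combination 0.40 to 0.78 (median 0.52). Above every untreated tumor stood 8 of 8 anti-LTβR tumors and 7 of 8 combination tumors. It was 1.41 fold higher after anti-LTβR (0.49, exact permutation adjusted p = 0.00186) and 1.30 fold higher in the combination (0.38, exact adjusted p = 0.00280). ADU-S100 gave 0.25 with an exact adjusted p of 0.0844. The Psmb10 to Psmb7 ratio averaged -0.01 ± 0.132 in untreated tumors and 0.05 ± 0.184 with ADU-S100, against 0.24 ± 0.172 after anti-LTβR and 0.20 ± 0.225 in the combination (log2 mean ± SD, n = 8 each). It was higher after anti-LTβR by 0.25 (exact permutation adjusted p = 0.0392, 5 of 8 above all untreated tumors), and the combination differed by 0.21 (exact adjusted p = 0.0968).

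**Figure D4:**
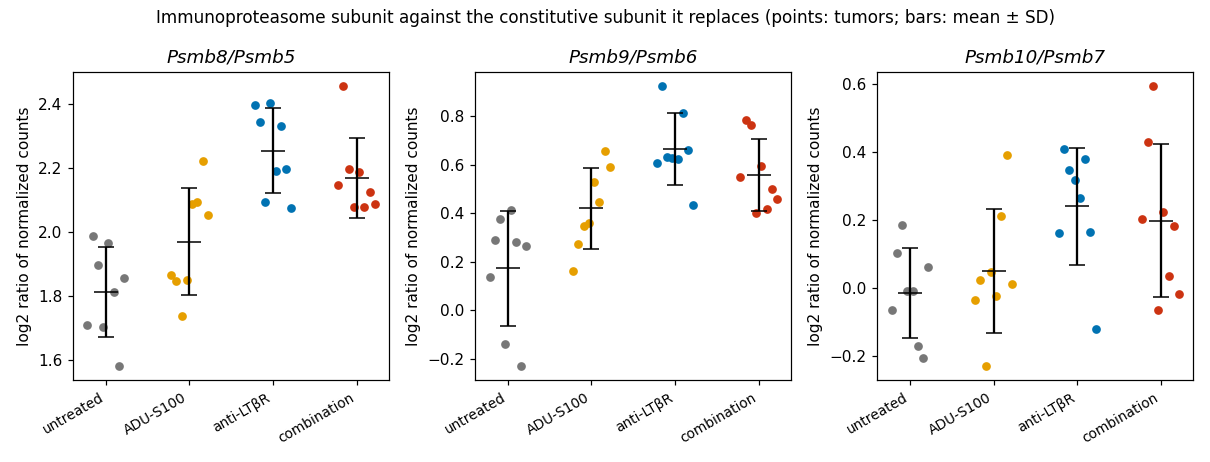
Log2 ratio of each immunoproteasome subunit to the constitutive subunit it replaces, by tumor and group, with the group mean ± SD. For Psmb8 to Psmb5 all anti-LTβR and combination tumors lie above the highest untreated tumor (1.99).

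Anti-LTβR also exceeded ADU-S100 alone in Psmb8 to Psmb5 by 0.29 (exact permutation adjusted p = 0.0291) and in Psmb9 to Psmb6 by 0.24 (exact adjusted p = 0.0392). Combination and anti-LTβR tumors differed in these ratios by -0.08 and -0.11, which did not pass (exact adjusted p = 0.318 and 0.281). The ratio of heavy to light chain averaged -0.25 ± 0.0883 for H2-K1 to B2m and 0.09 ± 0.0967 for H2-D1 to B2m in untreated tumors, and Tap1 to Tap2 averaged 1.24 ± 0.0931 (log2 of normalized counts, mean ± SD, n = 8). None of these 3 ratios passed in any pair of groups, and the smallest exact permutation adjusted p was 0.0752, for Tap1 to Tap2 in the combination against ADU-S100 (difference -0.09).

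Markers of several cell types differed in the same comparisons, in bulk RNA that holds no cell numbers. Ptprc, which encodes the leukocyte marker CD45, spanned 1309.7 to 1861 normalized counts in untreated tumors and 1379 to 2263 with ADU-S100, against 1744 to 2608 after anti-LTβR and 2007 to 2952 in the combination. It was higher by log2 0.59 in the combination (limma adjusted p = 0.000128) and by 0.37 after anti-LTβR (limma adjusted p = 0.0139). In the combination 5 of 5 T cell, 3 of 4 macrophage, 4 of 4 endothelial and 4 of 4 fibroblast markers were higher, and 4 of 5 tumor epithelium markers were lower, beside 19.6% of all genes higher and 23.6% lower. After anti-LTβR these counts were 1 of 5, 2 of 4, 2 of 4 and 0 of 4 higher and 3 of 5 lower, beside 7.21% and 8.1% of all genes. The summed macrophage markers spanned 6219.8 to 10857 in untreated tumors, 6531 to 8319 with ADU-S100, 8107 to 10070.5 after anti-LTβR and 9016 to 13657 in the combination. Summed tumor epithelium markers spanned 15439 to 28845, 13184 to 21644, 13058 to 16058 and 6756 to 14124 in the same order. Fibroblast markers summed to 57415 to 92269.8, 39228 to 111396, 45509 to 96753 and 98647 to 364223, T cell markers to 332 to 859.9, 428 to 585, 567 to 836 and 662 to 1128, and endothelial markers to 1123 to 1636, 883 to 1490.0, 1275 to 1763 and 2025 to 2848. Of the CD8 T cell markers 2 of 2 were higher in the combination (list median log2 0.84) and 1 of 2 after anti-LTβR (0.65). Of NK cell markers 1 of 3 was higher in each, and of neutrophil markers 1 of 3 and 0 of 3. Of B cell markers 3 of 4 were higher in the combination and 1 of 4 after anti-LTβR, and of dendritic cell markers 3 of 5 and 1 of 5, and lymphatic and lymph node stroma markers were higher in 3 of 3 and 1 of 3. No marker of these lists was at 0 in any tumor. Beyond the ratios to Ptprc given next, their part in the results was not tested.

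Set against Ptprc, no member was called higher than in untreated tumors. In the combination the log2 ratio of each member to Ptprc was lower than in untreated tumors, by amounts from -0.14 (Tapbp) to -0.52 (Psmb10), and none passed over 60 tests (smallest exact permutation adjusted p = 0.0528, for H2-D1). Ptprc itself was higher by log2 0.59 there and by 0.37 after anti-LTβR, beside medians of -0.02 and 0.00 over all genes. An unchanged gene therefore also falls in this ratio, and the share of all genes that fell was not computed. After anti-LTβR the ratio differed from untreated tumors by -0.27 (H2-D1) to 0.08 (Nlrc5), and none passed (smallest exact adjusted p = 0.169). The ratio of Nlrc5 to Ptprc was lower in all 8 combination tumors than in any anti-LTβR tumor (-0.34, exact permutation adjusted p = 0.00466) or any ADU-S100 tumor (-0.36, exact adjusted p = 0.00466). These were the only 2 of the 60 tests that passed. Nlrc5 itself differed by log2 -0.12 and 0.09 in these comparisons and passed in neither, whereas Ptprc was at 0.22 and 0.45. How many other genes part the groups in this way against Ptprc was not computed. With only libraries above 14000000 reads, an alternative chosen after seeing the data, 6 tumors a group remained and the differences in this ratio of Nlrc5 to Ptprc were -0.28 and -0.36. The exact permutation adjusted p was then 0.0649 each, from the smallest unadjusted p that 6 against 6 can give, 0.00216, so the loss of the call says nothing about stability.

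**Figure D5:**
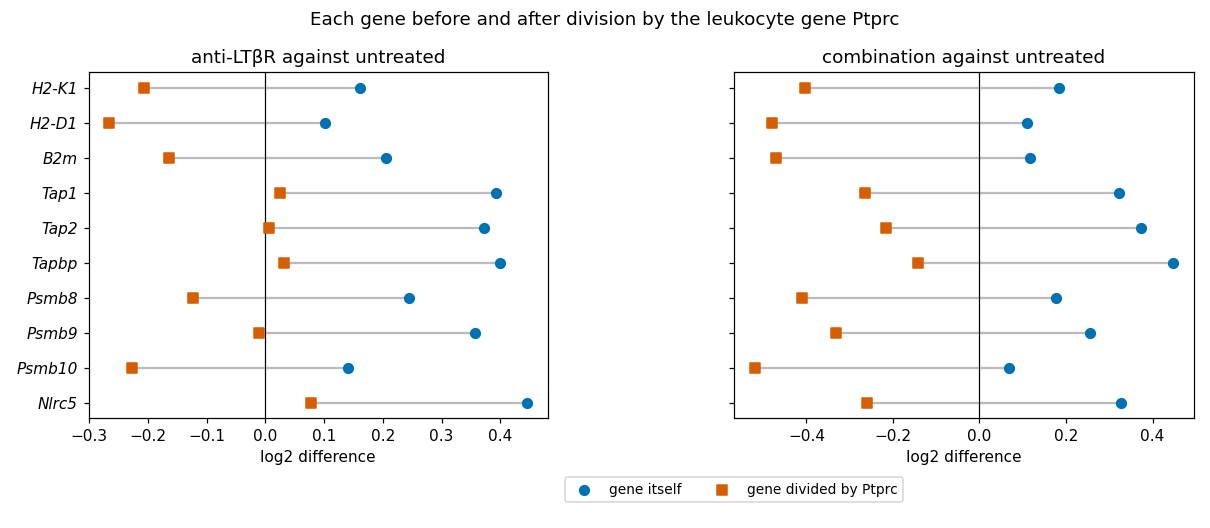
Log2 difference from untreated tumors of each gene itself (circles) and of its ratio to the leukocyte gene Ptprc (squares), for anti-LTβR and for the combination. In the combination the circles lie between 0.07 and 0.45 and the squares between -0.52 and -0.14.

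The rest of the pathway did not move as one. The other class I heavy chains, most of them nonclassical, had 15 tested identifiers of 18, and 12 were higher and 0 lower in the combination (median log2 0.48, beside -0.02 over all genes), where 19.6% of all genes were higher. After anti-LTβR 10 were higher and 0 lower, where 7.21% of all genes were higher (list median 0.35). H2-M2 rose the most, by log2 1.94 in the combination and 1.45 after anti-LTβR (limma adjusted p = 0.000181 and 0.00372). Cd1d1, which presents lipids to NKT cells, rose by 0.92 and 0.44, and Mr1, which presents vitamin B metabolites to MAIT cells, by 0.56 and 0.30. H2-Q7, a nonclassical chain of the Q region, rose by 0.48 and 0.50.

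Genes of the proteasome core were called lower at a share near that of all genes. Of 11 subunits of the proteasome core, 3 fell and 0 rose in the combination, namely Psma1 by log2 -0.18, Psma6 by -0.23 and Psmb3 by -0.20, and Psmb3 alone fell after anti-LTβR (-0.22). Beside these, 23.6% and 8.1% of all genes were lower. The list medians were -0.14 and -0.11. Of 5 activator and assembly genes none passed in the combination, and Psme3, an activator subunit of the nucleus, fell after anti-LTβR by -0.14. The interferon-inducible activator subunits Psme1 and Psme2 were at 0.00 and -0.08 in the combination and passed in neither comparison. Of 7 loading and trimming genes, the chaperones Hspa5 (-0.37) and Canx (-0.21) fell in the combination, again beside 23.6% of all genes. After anti-LTβR Hspa5 fell (-0.18) and Erap1, the peptidase that trims class I peptides, rose (0.30).

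Of 15 inducers and regulators, 10 rose and 1 fell in the combination and 8 rose and 0 fell after anti-LTβR, beside 19.6% higher and 23.6% lower of all genes in the combination and 7.21% and 8.1% after anti-LTβR. Ifng, the cytokine that induces the pathway, rose by log2 1.34 in the combination and 1.06 after anti-LTβR (limma adjusted p = 0.00174 and 0.00665). Irf1, a transcription factor that interferon-γ induces, rose by 0.42 and 0.41. Rfx5, which binds class I and class II promoters, rose by 0.60 and 0.46. The gene that fell in the combination was Irf9, a subunit of the complex ISGF3 that carries type I interferon signals, by -0.18. After ADU-S100 alone the list medians were 0.10 for the other heavy chains, 0.04 for the inducers and regulators and -0.12 for the proteasome core.

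Within the groups the members varied together from tumor to tumor. After subtracting each group's mean, the 45 pairs of members had Pearson correlations from -0.049 to 0.978 over 32 tumors, with a median of 0.835, all of them between genes read in the same libraries. H2-K1 and H2-D1 were the closest pair (r = 0.978). Of the members Nlrc5 was the least correlated with the heavy and light chains, at -0.049 with B2m, 0.166 with H2-K1 and 0.136 with H2-D1, and was closest to Tap1 (0.603) and Tap2 (0.555). The genes with the pattern nearest to the mean of the 10 over these tumors were H2-T22 (r = 0.958), H2-T23 (0.941) and H2-M3 (0.927), followed by H2-Q7 (0.906), H2-Q6 (0.890) and Zbp1 (0.887), among 17639 genes. Without the 2 tumors farthest from the median these 6 stood at 0.840 to 0.941. Irf1 had r = 0.688. Ifng had r = 0.629, Ptprc 0.207, the epithelial keratin Krt8 0.0928 and the fibroblast marker Col1a1 -0.383.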

How the data were processed

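The series holds 52 mouse tumor libraries, of which the 32 of 1 experiment, 8 in each of 4 groups, were compared. Groups and numbers come from the sample labels. For 15 libraries of another experiment the labels give no single group, and 5 others of it carry the combination, and none of these 20 enters a comparison. Each value of both tables is a signal that the authors deposited, namely the reads of a gene scaled by a size factor of its library, in a table of 32 libraries (27525 genes) or of 52 (27894 genes). In the first table some values are far below 1 read (1.24e-36 for H2-Q2 in an ADU-S100 tumor), so its reads are estimates, and how shared reads were split is not given in the sources used here. The submitters' notes name cutadapt 1.9, HISAT2, StringTie, STAR, Partek, DESeq2 and edgeR and the build mm39, and the first table is named for Partek, for which the reporting summary names STAR, whereas the methods name HISAT2 and StringTie for mouse tumors. The aligner of each table is not given in the sources used here. A deposited table of gene set enrichment by the authors was not used.

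From the first table log2(value + 1) was tested with limma 3.58.1 (R 4.3.3, trend) over all genes that passed filterByExpr (count minimum 10), each comparison on its 16 libraries and the interaction on 32, and p-values were adjusted by Benjamini-Hochberg with a threshold of 0.05. The fold changes are on that log2 scale. Values of the larger table were whole multiples of the worth of 1 read, within a tolerance of 0.1 of a read, so whole reads were recovered for edgeR 4.0.16 and DESeq2 1.42.0, both as alternatives. Ratios within a tumor were compared by exact permutation. Counts per kb used the exon bases of GENCODE M21, because the length column of the table is the genomic span, and gene positions are those of the table (GRCm39), and promoters are from RefSeq (GRCm38.p6). The 10 genes and all lists were chosen with earlier results of these data known. Some items are not reported here. The genes named are the 10 members and up to 4 examples of each list.

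The alternatives were no filter, at least 10 counts in every library, a pseudocount of 0.1, a joint fit, a replicate block, library centring, edgeR with 3 scalings, DESeq2, a 2-fold threshold, only libraries above 14000000 reads (which leaves out 7) and leaving out each library. On simulated counts for combination against untreated tumors (15722 genes), limma recovered 30 of 100 genes changed by 0.4 on the log2 scale and 80 of 98 changed by 1, with 3 false calls. The changed genes were drawn at random over all levels and were far fewer than those that passed in the tumors. These shares therefore do not give the chance of calling a member.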

Additional observations from a re-analysis of the deposited data

Results flagged for a closer look

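Some values stood far from the rest of their group by Dixon's test, with a gap over the 95% critical value for 8 tumors, in 5 of 64 groups of values, where chance gives about 1 in 20. Tap2 in untreated tumor 7 was 1529.8 normalized counts, with the nearest untreated tumor at 1963. Psmb9 in the same tumor was 1114, with the nearest at 1621. Without this tumor the limma estimate for Psmb9 after anti-LTβR was 0.27 in place of 0.36 and passed (adjusted p = 0.0277). The log2 ratio of Psmb8 to Psmb5 in combination tumor 2 was 2.46, above the next tumor at 2.20. The log2 ratio of Psmb10 to Psmb7 in anti-LTβR tumor 8 was -0.12, below the next at 0.16, and that of H2-K1 to B2m in combination tumor 6 was 0.043, above the next at -0.14.

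Nlrc5 differed between groups in the test of the interaction: the log2 effect of ADU-S100 was lower by -0.36 in the presence of anti-LTβR than without it (limma adjusted p = 0.0376, 32 tumors).

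The libraries of the other experiment, which enter no comparison, were read from the table of 52 libraries. In the 5 of them that carry the combination the median was 44754 for H2-K1, 70282 for H2-D1, 84998 for B2m and 5980 for Tap1, each above every untreated tumor of the first experiment. The medians of Psmb8 (7022), Psmb9 (3622) and Psmb10 (3424) also lay above every untreated tumor, but the 5 libraries ranged widely, from 3142 to 120599 for Psmb8 and from 3097 to 9738 for Tap1, and the library at 120599 held 8716257 reads. Tap2 in these 5 had a median of 2223, within the untreated range of 1582 to 2333. In the 15 libraries with no group the median of B2m was 58654, above every untreated tumor, but those of H2-K1 (36029), Tap1 (4060) and Tap2 (1618) were below the untreated medians (37667, 4906 and 2159). Those of Psmb8 (3999), Psmb9 (2012) and Psmb10 (1771) were above them (3545, 1751 and 1426). Nlrc5 had a median of 1181 in the 5 libraries and 1304 in the 15, below the lowest untreated tumor (2038). These libraries were made in another experiment, so that experiment and treatment cannot be told apart.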

How the results depend on the processing

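The 4 members called in the combination (Tap1, Tap2, Tapbp, Nlrc5), and the same 4 after anti-LTβR, kept their call in every alternative run on single genes (11 for each, 7 for Tapbp) and without any 1 library, but with a 2-fold threshold 0 members passed in the combination, after anti-LTβR, in combination against ADU-S100 and in anti-LTβR against ADU-S100. Leaving out each library gave 4 to 5 members in the combination, 4 to 5 after anti-LTβR, 0 to 0 after ADU-S100 and between combination and anti-LTβR, 2 to 4 in combination against ADU-S100, 0 to 5 in anti-LTβR against ADU-S100 and 0 to 1 in the interaction. Psmb9 after anti-LTβR had an adjusted p of 0.0565 with only libraries above 14000000 reads, and in the combination it passed in a joint fit, with the replicate block, in edgeR with library totals and in DESeq2. In combination against ADU-S100 the count was 0 with only the deeper libraries, and 1 with library centring, 1 in edgeR with RLE and 1 with library totals, where Tapbp could not be tested. In anti-LTβR against ADU-S100 it was 0 in a joint fit, and in the interaction 0 with no filter and 0 in edgeR with RLE, library totals or TMM. Leaving out each library moved uncalled differences across 0, with Psmb10 in the combination at -0.0039 to 0.12 and, after ADU-S100, Psmb8 at -0.051 to 0.068, Psmb10 at -0.11 to 0.013, H2-K1 at -0.037 to 0.070 and H2-D1 at -0.043 to 0.069. With only the deeper libraries anti-LTβR against ADU-S100 gave 0.33 for Psmb8 to Psmb5 (exact adjusted p = 0.0519) and 0.25 for Psmb9 to Psmb6 (0.0668), and 0.0018 for H2-K1 to B2m. Tap1 to Tap2 was -0.011 after anti-LTβR, and Nlrc5 to Ptprc was -0.28 in combination against anti-LTβR and -0.36 against ADU-S100. The cause of these changes was not tested, beyond the smaller number of tumors.

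Tumors of the same number share no other label. Between groups their deviations had a mean correlation of -0.085 to 0.19, over 0.1 in 2 to 6 of 8 pairs. The highest were 0.19 for ADU-S100 with untreated tumors and 0.17 for the combination with anti-LTβR tumors. Tumors of different numbers stood at -0.03 in each. Whether the numbers stand for a shared factor was not tested. With the replicate block 0 members passed in anti-LTβR against ADU-S100, and no other count of members moved by over 1.5 times. For ratios the block permutes signs, with a smallest exact p of 0.0078, and none of the 36 tests passed. Psmb8 to Psmb5 then gave 0.36 in the combination and 0.44 after anti-LTβR and Psmb9 to Psmb6 0.38 and 0.49 (exact adjusted p = 0.0563 each). Psmb10 to Psmb7 gave 0.25 after anti-LTβR, and anti-LTβR against ADU-S100 gave 0.29 for Psmb8 to Psmb5 and 0.24 for Psmb9 to Psmb6.

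Over all genes, library centring turned 3310 higher and 3995 lower into 2827 and 5211 in the combination, 1203 and 1352 into 1064 and 1822 after anti-LTβR, 3391 and 4368 into 2840 and 5734 in combination against ADU-S100, and 563 and 506 into 506 and 1013 in anti-LTβR against ADU-S100. In the interaction 1293 and 1947 became 1042 and 2592. Between combination and anti-LTβR 1917 and 2587 became 1660 and 3733, and 2074 and 1781 in edgeR with RLE, 2087 and 1742 with TMM and 2304 and 2069 in DESeq2. In anti-LTβR against ADU-S100 a joint fit gave 302 and 173, the replicate block 273 higher, library totals 532 and 291, no filter 405 and 305 and DESeq2 863 and 773. In the interaction RLE gave 1476 and 1399, library totals 1313 and 1296 and DESeq2 1693 and 1588. With only the deeper libraries it gave 738 and 830, anti-LTβR against untreated tumors 794 and 743, and combination against anti-LTβR 739 and 711. The replicate block gave 820 and 840 after anti-LTβR, and the 1352 lower there were 737 without untreated tumor 1, 880 without untreated tumor 4 and 841 without anti-LTβR tumor 7. DESeq2 called 28 genes higher and 11 lower after ADU-S100. In the counts simulated for combination against untreated tumors 28 of its calls were false, and ADU-S100 was not simulated.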
